A study of Homo sapiens with 6 samples.

Results

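The genes described here are those of the machinery that removes the poly(A) tail and the cap of messenger RNA, degrades the RNA body from either end and removes transcripts with premature stop codons. They were taken from the deposited table by symbol: every row whose symbol starts with CNOT, EXOSC, LSM, SMG or DCP followed by a digit, and 16 single genes (UPF1, UPF2, UPF3A, UPF3B, XRN1, XRN2, EDC3, EDC4, PAN2, PAN3, PARN, DIS3, DIS3L, PATL1, TOB1 and TOB2). The rule found 59 of the 12793 rows, all protein-coding in GENCODE 29 and each with a symbol of its own. The 6 RNA-seq libraries come from HCT15 cells, a human line established from colorectal cancer and grown in RPMI-1640 with serum. Control libraries 1 to 3 carried a control guide (sgctrl, genotype WT), and the other 3 (sgRBM15) are labelled as knockout of RBM15 by CRISPR/Cas9. All 6 share the cell line, the medium and the library kit, and the labels do not say whether the edited cells are 1 clone or a pool. The study asked what RBM15, an RNA-binding subunit of the complex that writes m6A on RNA, does inside the tumour cells.

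Most messenger RNAs are degraded after their poly(A) tail is shortened, first by PAN2-PAN3 and then by the CCR4-NOT complex. The shortened RNA is then decapped by DCP2 with its activators and the LSM1-7 ring and degraded from the 5′ end by XRN1, or it is degraded from the 3′ end by the exosome. Nonsense-mediated decay (NMD) uses UPF1 and its kinase SMG1 to send transcripts with premature stop codons into the same enzymes. The m6A mark is tied to this machinery, because the m6A reader YTHDF2 recruits CCR4-NOT to marked transcripts.

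Values were deposited as FPKM, fragments scaled by transcript length and library total, a scale on which different genes can be compared per length. The 6 columns had sums from 402288 to 415057 FPKM, and read depth is unknown. RBM15 itself read 5.97, 5.89 and 5.51 FPKM in the controls but 17.3, 18.5 and 18.03 FPKM under the knockout label. Its mRNA was thus higher, not lower, where a knockout is labelled (log2 difference 1.48, SE 0.049, limma adjusted p = 3.88e-06). The labels give no guide position, so the targeted gene does not check the labels, and "rose" or "fell" here says only that a gene was higher or lower under the knockout label. Whether the 3 libraries of a group are separate cultures is not labelled, and p-values then reflect the spread between these libraries only, which may be technical. Of 8 intestinal epithelial markers 6 were in the table, and EPCAM stood at 528 ± 5.3 FPKM in the controls. Of 11 blood and stromal markers the table held CD14 (3.68 ± 0.468 FPKM in the controls) and COL1A1 (1.15 ± 0.245 FPKM). Of the 6 epithelial markers 4 fell and KRT8 rose. CDX2 (20.9 ± 0.138 to 9.52 ± 0.254 FPKM) and VIL1 (16.98 ± 0.168 to 3.87 ± 0.222 FPKM) were among those that fell, and the part of that change in the results below was not tested. In bulk RNA, fewer cells with a transcript and less of it per cell cannot be told apart.

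All 59 members reached the mean of 1 FPKM (all 6 libraries) that a gene needed to be tested. At a limma adjusted p of at most 0.05 over all tested genes, 35 of the 59 changed (59.3%), of which 25 rose and 10 fell. Of all 11451 tested genes 54.5% were called, 25.3% higher and 29.2% lower, so the share of members called was near the background. The members' median log2 difference was 0.09, against -0.02 for all tested genes. The split depended on scaling, for the members and for all genes. Under TPM scaling (equal column sums) it was 27 higher and 6 lower among the members and 3209 and 3294 among 12349 tested genes. More genes were tested there because the filter and pseudocount of 1 were applied to the rescaled values. With median centring the split was 28 and 6 against 3239 and 3044, and with quantile normalization 26 and 5 against 3367 and 2894. With a GC and length trend removed it was 27 and 7 against 3438 and 2763 of 11160 tested genes. All genes thus held more lower than higher calls as deposited and under TPM scaling, and more higher than lower calls under those other 3 settings. Among the members the split as deposited became 25 and 6 without control library 1, 24 and 6 without control library 3, and 23 and 6 without knockout library 3. The differences were small: 19 of the called members differed by at least 1.2-fold between group means (39.2% of all tested genes were called and differed by that much), and PAN2 was the 1 member that differed by at least 1.5-fold (12.8% of all tested genes). In 22 of the 25 higher and 4 of the 10 lower members (LSM2, PAN2, PAN3 and SMG9) the call stood in all 15 alternative settings in which the gene was tested.

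**Figure D1:**
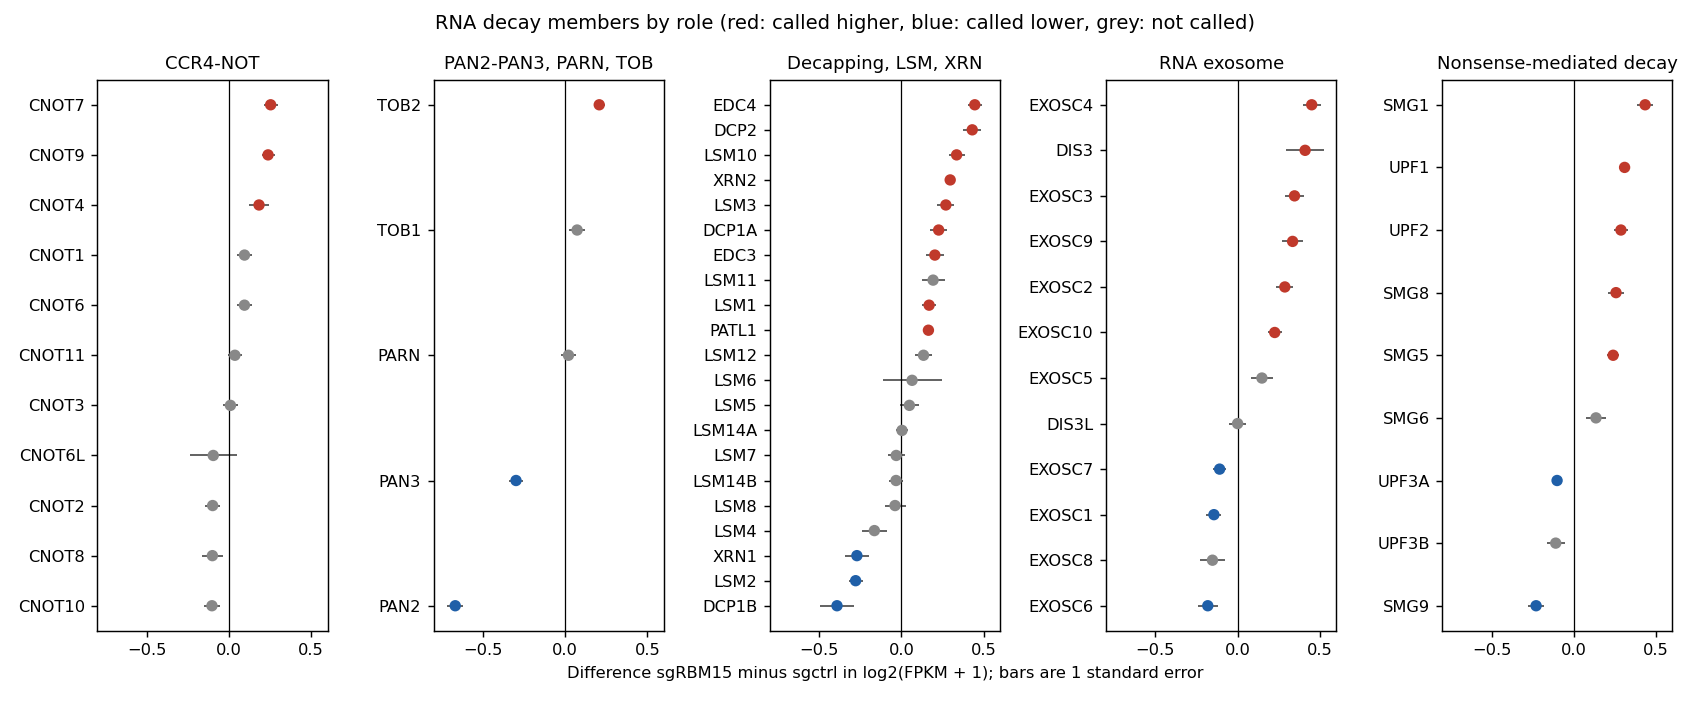
Difference between the libraries labelled RBM15 knockout and the control libraries on the log2(FPKM + 1) scale (x axis) for 58 of the 59 members, in 1 panel per role; points are limma estimates, bars 1 standard error, and colour gives the call at adjusted p of at most 0.05. PAN2 lies farthest to the left at -0.67, and EXOSC4, EDC4, SMG1 and DCP2 lie farthest to the right at 0.43 to 0.45.

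**Figure D2:**
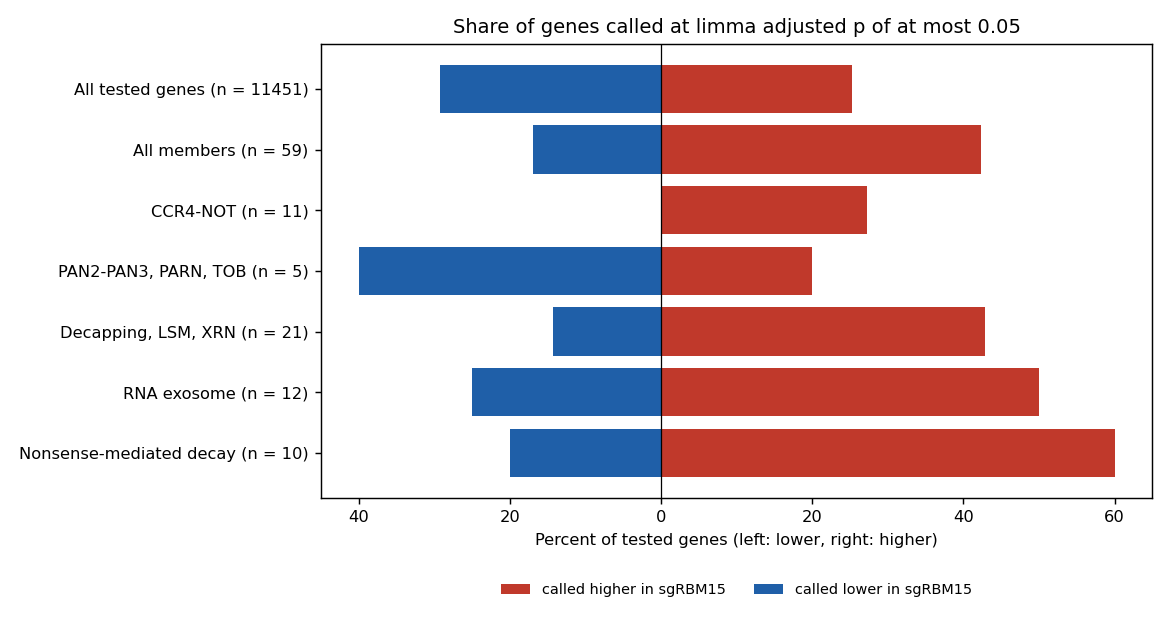
Percent of tested genes called higher (right) and lower (left) in the libraries labelled knockout, for all tested genes, all members and each role; the number tested stands beside each bar. Higher calls make up 25.3% of all tested genes, 42.4% of the members and 6 of the 10 NMD factors, while PAN2-PAN3, PARN and TOB hold 2 lower and 1 higher of 5.

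The 2 subunits of the first deadenylase fell together. PAN2 is the exonuclease of the complex, and PAN3 is the pseudokinase scaffold that brings it to poly(A)-binding protein. PAN2 read 10.5, 10.99 and 11.1 FPKM in control cells against 6.19, 6.65 and 6.52 FPKM under the knockout label. The groups lay far apart: PAN2 fell by 40.5%, with a log2 difference of -0.67 (SE 0.049, limma adjusted p = 7.18e-05), the largest difference of any member. PAN3 read 18.9, 18.8 and 18.4 FPKM in control cells against 15.01, 14.5 and 15.5 FPKM under the knockout label, again without overlap. Its log2 difference was -0.30 (SE 0.041, adjusted p = 0.000939). PAN2 (ENSG00000135473) spans chromosome 12 from 56316223 to 56334053 (minus strand) and PAN3 (ENSG00000152520) chromosome 13 from 28138506 to 28295335 (plus strand) in GENCODE 29 on GRCh38. Exons of PAN2 overlap those of CNPY2 on the same strand, so reads could be divided between them, and CNPY2 stood at 47.9 ± 4.53 and 42.1 ± 3.26 FPKM (log2 difference -0.18, adjusted p = 0.0895).

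Promoter windows are shown for PAN2 and PAN3 because these genes fell together. Each window holds 250 bases before and 50 after a start of the gene in RefSeq (GRCh38.p14), the first one listed. It is read 5′ to 3′ on the gene's strand, with matches to 5 motifs in capitals. The motifs, searched on both strands, were the E-box CACGTG, the ETS core CCGGAAG, the CCAAT box, the cyclic AMP response element TGACGTCA and the TATA box TATAAA.
PAN2, chr12:56333951-56334250, minus strand: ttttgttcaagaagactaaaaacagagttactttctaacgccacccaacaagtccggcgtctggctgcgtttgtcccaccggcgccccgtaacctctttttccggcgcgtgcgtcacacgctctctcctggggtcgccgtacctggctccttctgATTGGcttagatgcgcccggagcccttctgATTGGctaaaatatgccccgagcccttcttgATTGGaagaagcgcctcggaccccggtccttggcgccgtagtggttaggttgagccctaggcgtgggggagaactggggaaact
PAN3, chr13:28138295-28138594, plus strand: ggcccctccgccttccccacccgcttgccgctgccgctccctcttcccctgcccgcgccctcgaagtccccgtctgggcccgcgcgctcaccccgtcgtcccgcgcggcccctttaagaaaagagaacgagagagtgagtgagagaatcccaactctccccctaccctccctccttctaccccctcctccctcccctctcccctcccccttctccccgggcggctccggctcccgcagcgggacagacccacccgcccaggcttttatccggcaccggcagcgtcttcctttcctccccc
The PAN2 window held 3 CCAAT boxes, each in the reverse orientation (ATTGG), and PAN3 held no match to any of the motifs. Windows with at least 3 CCAAT matches made up 5.33% of those of tested genes, and 37.3% held at least 1. Among the members, 5 of the 50 with a window had at least 3 (CNOT3, CNOT10, DCP2, EXOSC2 and PAN2), which include called members of both directions and members without a call. A match is a description of these letters and not of binding.

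The other members of this group were not called lower. PARN, a poly(A)-specific ribonuclease that works on many small RNAs, stood at 20.9 ± 0.827 FPKM in control cells against 21.2 ± 0.732 FPKM under the knockout label (log2 difference 0.02, 95% interval -0.09 to 0.13, adjusted p = 0.733). TOB1 and TOB2 encode antiproliferative adaptors that link CCR4-NOT to poly(A)-binding protein and to RNA-bound proteins. TOB2 rose from 22.2, 22.4 and 21.8 FPKM to 25.2, 25.9 and 25.9 FPKM (log2 difference 0.21, SE 0.034, adjusted p = 0.002). TOB1 stood at 22.7 ± 0.685 and 23.96 ± 1.26 FPKM without a call (log2 difference 0.07, 95% interval -0.04 to 0.19, adjusted p = 0.24).

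Most of CCR4-NOT, the main cytoplasmic deadenylase, showed no call. Of its 11 members 3 rose (27.3%) and none fell at the threshold, and the median log2 difference was 0.04. Of all tested genes 25.3% rose and 29.2% fell. The complex has 1 scaffold, CNOT1, which was also its most abundant member (49.4 ± 0.784 and 52.8 ± 2.81 FPKM, log2 difference 0.09, adjusted p = 0.106). The deadenylase subunit gene CNOT7 rose, from 38.3, 36.9 and 36.5 FPKM to 43.1, 43.7 and 46.98 FPKM in the libraries labelled knockout, with no overlap (log2 difference 0.25, SE 0.043, adjusted p = 0.00236). Exons of CNOT7 overlap those of VPS37A on the other strand, and VPS37A was not called (log2 difference 0.15, adjusted p = 0.182). CNOT8, the paralog that can take its place, stood at 40.5, 39.1 and 42.3 FPKM in control cells against 40.9, 34.4 and 38.3 FPKM under the knockout label, where the groups overlap (log2 difference -0.10, 95% interval -0.25 to 0.05, adjusted p = 0.228). CNOT7 was thus below CNOT8 in each control library and above it in each library labelled knockout.

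CNOT9, the subunit that binds the GW182 proteins of microRNA silencing, rose from 35.5, 36.8 and 35.3 FPKM to 43.6, 43.3 and 40.6 FPKM (log2 difference 0.24, SE 0.040, adjusted p = 0.00223). CNOT4, a ubiquitin ligase that is only loosely held by the human complex, had the lowest mean level of the CCR4-NOT members, at 8.33, 7.45 and 8.57 FPKM in control cells against 9.23, 9.19 and 9.58 FPKM under the knockout label. Its log2 difference of 0.18 (adjusted p = 0.0354) lost the call when control library 1 (0.20) or 2 (0.13) or any library labelled knockout (0.17 to 0.19) was left out. CNOT6 and CNOT6L encode the other deadenylase of the complex, of the endonuclease-exonuclease-phosphatase type. CNOT6 stood at 25.7 ± 0.46 and 27.5 ± 1.59 FPKM (log2 difference 0.09, 95% interval -0.02 to 0.21). CNOT6L spread widely in the controls, at 8.14, 9.37 and 12.4 FPKM, and its 95% interval of -0.43 to 0.24 spans both directions. CNOT2, CNOT3, CNOT10 and CNOT11, which form the NOT module and the N-terminal module around CNOT1, had log2 differences of -0.10, 0.01, -0.10 and 0.04, none called.

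**Figure D3:**
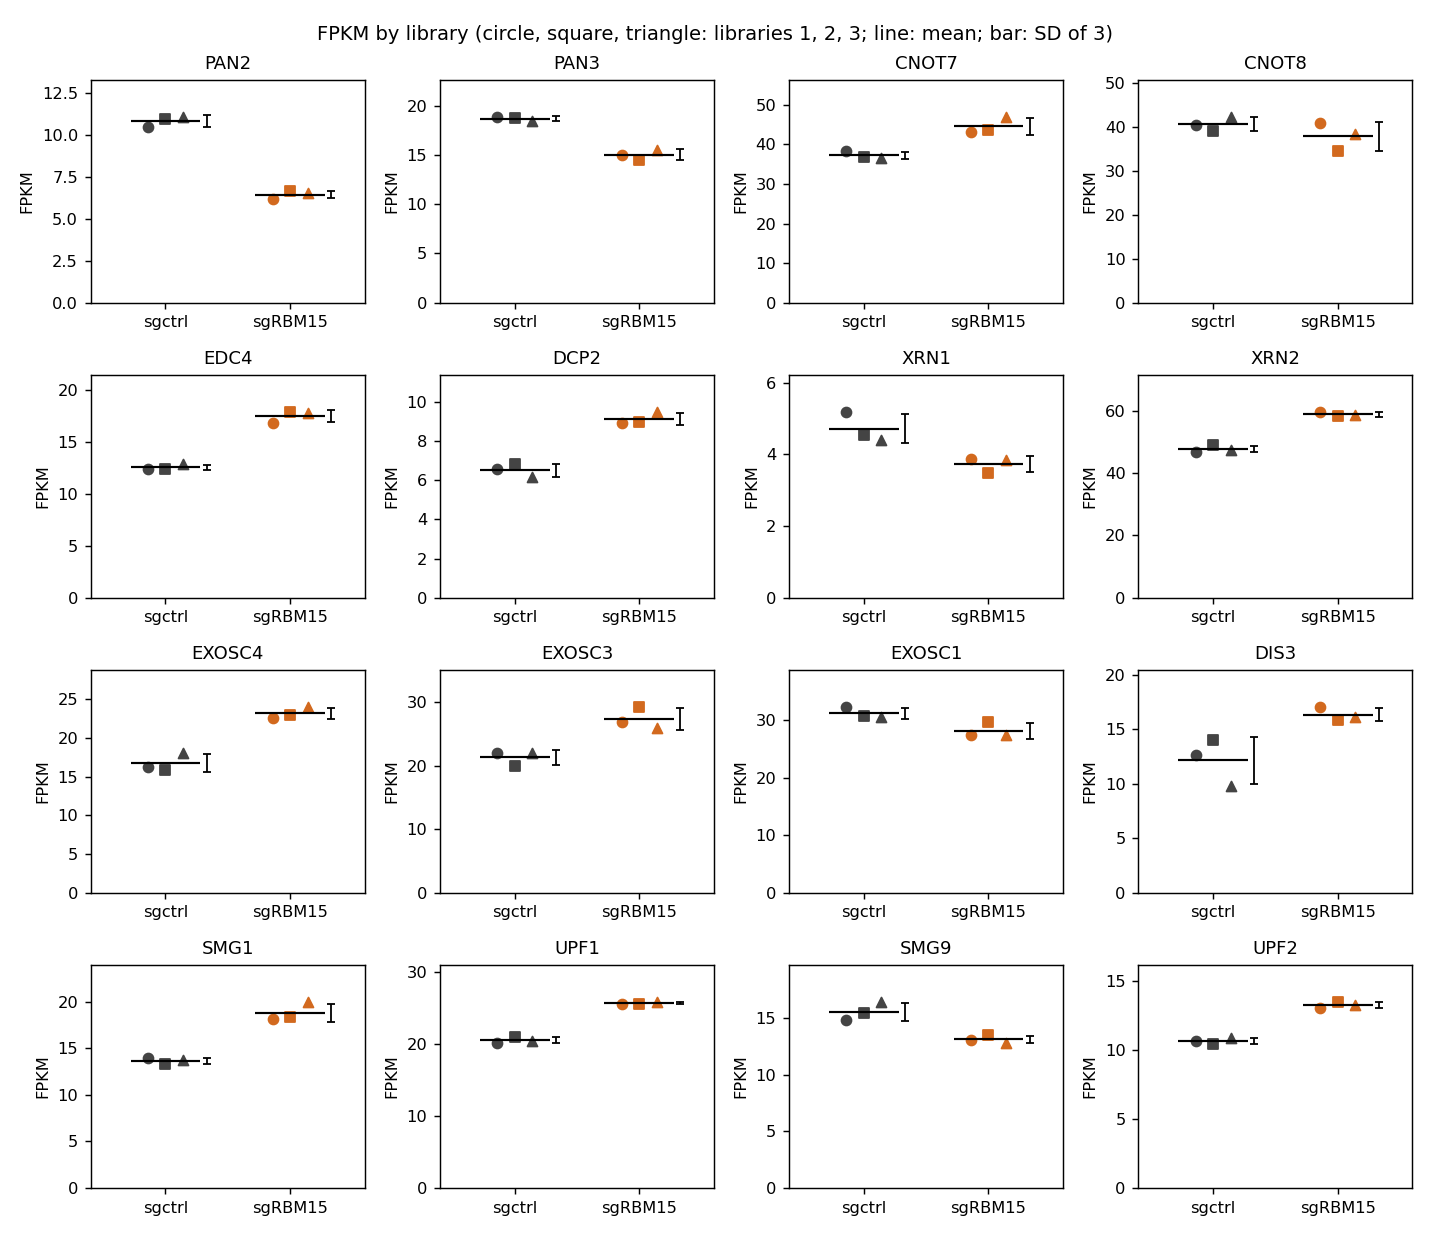
FPKM (y axis, from 0) of 16 members in the 3 control and 3 libraries labelled RBM15 knockout; symbols are libraries, lines group means and bars the SD of 3. PAN2, PAN3, XRN1, EXOSC1 and SMG9 lie lower in the libraries labelled knockout, CNOT8 overlaps between the groups, and the other 10 lie higher, with DIS3 spread from 9.81 to 14.1 FPKM in the controls.

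Among 21 genes of decapping, the LSM family and the 5′ exonucleases, 9 rose and 3 fell, a share called of 57.1% against 54.5% of all tested genes, and the median log2 difference was 0.13. DCP2, the decapping enzyme, read 6.55, 6.83 and 6.15 FPKM in control cells against 8.92, 8.96 and 9.48 FPKM under the knockout label. Every library labelled knockout lay above every control, and the log2 difference was 0.43 (SE 0.054, adjusted p = 0.000662). EDC4, the scaffold that holds DCP2 and DCP1 together, rose from 12.4, 12.4 and 12.8 FPKM to 16.8, 17.9 and 17.8 FPKM (log2 difference 0.45, SE 0.042, adjusted p = 0.000191). The activators PATL1 (log2 difference 0.16, adjusted p = 0.00722), DCP1A (0.23, adjusted p = 0.00808) and EDC3 (0.20, adjusted p = 0.0194) rose less. EDC3 lost its call when control library 2 (0.18) or 3 (0.20) or knockout library 1 (0.18) or 3 (0.17) was left out, and its exons overlap those of CLK3 on the other strand, which rose too (0.35, adjusted p = 0.00186).

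DCP1B, the paralog of DCP1A, moved the other way. It read 3.51, 4.5005 and 3.28 FPKM in control cells against 2.64, 2.59 and 2.6027 FPKM under the knockout label, and it fell by 30.7% (log2 difference -0.39, SE 0.101, adjusted p = 0.0144). Control library 2 was the highest value, and the call was lost with quantile normalization (-0.27, adjusted p = 0.0686). DCP1A stood at 12.8, 12.6 and 12.2 FPKM and at 14.3, 14.4 and 15.8 FPKM, so the difference between the paralogs in level per length widened in the libraries labelled knockout.

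The 5′ to 3′ exonucleases also went apart. XRN2, the nuclear enzyme of transcription termination and ribosomal RNA processing, rose from 46.7, 48.8 and 47.5 FPKM to 59.6, 58.1 and 58.7 FPKM (log2 difference 0.30, SE 0.031, adjusted p = 0.000295). XRN1, the cytoplasmic enzyme that degrades decapped mRNA, read 5.18, 4.55 and 4.41 FPKM in control cells against 3.88, 3.49 and 3.83 FPKM under the knockout label. It fell with a log2 difference of -0.27 (SE 0.074, adjusted p = 0.018), and the call was lost without control library 1 (-0.21, adjusted p = 0.0544), without knockout library 2 (-0.23, adjusted p = 0.0544) and with quantile normalization (-0.17, adjusted p = 0.098). XRN1 was among the least abundant members and XRN2 among the most abundant in both groups.

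Of the 13 LSM genes 3 rose, 1 fell and 9 were not called, a share called of 30.8% against 54.5% of all tested genes. LSM2 to LSM7 form a ring with LSM1 in the cytoplasm, where it binds oligoadenylated RNA ends, and with LSM8 in the nucleus, where it binds U6 RNA. LSM1 rose (40.1 ± 1.2 to 45.2 ± 1.74 FPKM, log2 difference 0.17, adjusted p = 0.0117), though its exons overlap those of BAG4 on the other strand, which rose as well (log2 difference 0.44, adjusted p = 0.00117). LSM8 stood at 14.6 ± 0.596 and 14.2 ± 1.15 FPKM (log2 difference -0.04, 95% interval -0.19 to 0.11, adjusted p = 0.634). Of the shared ring subunits, LSM3 rose (0.27, adjusted p = 0.00421) and LSM2 fell, from 67.4, 67.3 and 65.1 FPKM to 53.3, 57.97 and 53.1 FPKM (-0.28, SE 0.042, adjusted p = 0.00148). LSM4, the most abundant of all members, was not called at 113 ± 2.02 and 101 ± 11.6 FPKM. Without knockout library 1, the single library of its group at the control level (114 FPKM), its log2 difference was -0.25 (adjusted p = 0.0053). LSM5, LSM6 and LSM7 had log2 differences of 0.05, 0.06 and -0.03 without a call, and LSM6 ranged from 10.9 to 17.2 FPKM within the group labelled knockout.

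The remaining LSM genes do not belong to that ring. LSM10 and LSM11 are subunits of the U7 particle that cuts histone mRNA 3′ ends. LSM10 rose from 27.8, 27.9 and 26.3 FPKM to 36.6, 32.9 and 35.03 FPKM (log2 difference 0.34, SE 0.049, adjusted p = 0.00124). LSM11, the least abundant of all members, stood at 2.196, 2.34 and 2.43 FPKM and at 2.81, 2.96 and 2.62 FPKM, without overlap and without a call (0.19, adjusted p = 0.0511). LSM11 was called in 5 alternatives (no filter, TPM scaling, median centring, quantile normalization, no variance trend), at 0.19 to 0.34 and adjusted p of 0.0053 to 0.0428. LSM12 (0.13, adjusted p = 0.0675) was called in 4 alternatives (TPM scaling, median centring, GC and length trend removed, control library 1 left out; 0.16 to 0.17) but not as deposited, and neither were the P-body proteins LSM14A (0.00, 95% interval -0.08 to 0.09) and LSM14B (-0.03, 95% interval -0.14 to 0.07).

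Exosome subunits changed in both directions. Of 12 genes 6 rose and 3 fell, with a median log2 difference of 0.19. The share called was 75.0%, against 54.5% of all tested genes (25.3% higher and 29.2% lower). DIS3 and EXOSC10 encode the nucleases of the nuclear exosome. EXOSC10 rose from 44.2, 41.4 and 44.96 FPKM to 51.1, 49.5 and 52.5 FPKM (log2 difference 0.23, SE 0.042, adjusted p = 0.0038). DIS3 read 12.6, 14.1 and 9.81 FPKM in control cells against 17.03, 15.8 and 16.2 FPKM under the knockout label (log2 difference 0.41, SE 0.115, adjusted p = 0.0201). Its call was lost without knockout library 1 (0.38, adjusted p = 0.0606) and with a GC and length trend removed (0.32, adjusted p = 0.051). Exons of DIS3 overlap those of 2 genes on the other strand, BORA, which rose (0.19, adjusted p = 0.0275), and PIBF1, not called (0.15, adjusted p = 0.141). DIS3L, the cytoplasmic counterpart, stood at 9.98 ± 0.239 and 9.99 ± 0.591 FPKM (log2 difference 0.00, 95% interval -0.13 to 0.13).

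The cap and the ring of the exosome carry no catalysis in human cells and thread RNA to the nucleases. Of the 3 cap genes EXOSC2 and EXOSC3 rose and EXOSC1 fell. EXOSC3 read 21.97, 19.9 and 22.001 FPKM in control cells against 26.9, 29.2 and 25.9 FPKM under the knockout label (log2 difference 0.35, SE 0.060, adjusted p = 0.00258), and EXOSC2 rose from 29.6 ± 1.98 to 36.3 ± 0.631 FPKM (0.29, adjusted p = 0.00312). Exons of EXOSC3 overlap those of DCAF10 on the other strand, which fell (-0.29, adjusted p = 0.00316). Of the 6 ring genes 2 rose, 2 fell and 2 were not called. EXOSC4 rose from 16.2, 15.9 and 18.05 FPKM to 22.6, 22.98 and 23.99 FPKM (log2 difference 0.45, SE 0.055, adjusted p = 0.000586). EXOSC9, whose exons overlap those of the cyclin gene CCNA2 on the other strand, rose from 34.7, 38.2 and 34.3 FPKM to 44.3, 42.5 and 49.3 FPKM (0.33, SE 0.066, adjusted p = 0.00456), and CCNA2 rose by 0.25 (adjusted p = 0.000881).

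The 3 exosome subunits that fell did so by little, and their calls depended on the setting. EXOSC6, the least abundant exosome subunit, stood at 8.29 ± 0.517 and 7.18 ± 0.364 FPKM (log2 difference -0.18, adjusted p = 0.0408), EXOSC1 at 31.2 ± 0.93 and 28.2 ± 1.35 FPKM (-0.14, adjusted p = 0.0311) and EXOSC7 at 31.4 ± 0.592 and 29.1 ± 1.04 FPKM (-0.11, adjusted p = 0.0467). EXOSC6 lost the call when control library 2 (-0.17) or 3 (-0.15) or knockout library 1 (-0.17) or 3 (-0.16) was left out. EXOSC1 lost it without control library 1 (-0.12), 2 (-0.15) or 3 (-0.16) or knockout library 1 (-0.13) or 3 (-0.12). EXOSC7 lost it without control library 1 (-0.12), 2 (-0.09) or 3 (-0.11) or knockout library 2 (-0.09) or 3 (-0.10). TPM scaling, median centring, quantile normalization and a replicate block each ended all 3 calls, removing the GC and length trend ended those of EXOSC1 and EXOSC7, and dropping the variance trend ended that of EXOSC7. Over the settings without a call, the log2 difference of EXOSC6 lay between -0.18 and -0.14 (adjusted p 0.0589 to 0.124) and that of EXOSC1 between -0.16 and -0.09 (0.0502 to 0.134). That of EXOSC7 lay between -0.12 and -0.038 (0.0674 to 0.368), the smallest with the GC and length trend removed. EXOSC8, the most abundant exosome subunit, stood at 64.1 ± 1.82 and 57.8 ± 6.42 FPKM without a call (-0.15, adjusted p = 0.135), and its log2 difference ran from -0.21 without knockout library 3 to -0.06 without knockout library 2. EXOSC5 was not called either, at 20.2 ± 1.81 and 22.4 ± 0.54 FPKM (0.15, adjusted p = 0.0924). It was called without control library 2 (0.20, adjusted p = 0.0325) and, at 0.36 (adjusted p = 0.00156), once the GC and length trend was removed. Exons of EXOSC5 overlap those of BCKDHA on the other strand, which fell (-0.61, adjusted p = 7.91e-05).

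Among the NMD factors 6 of 10 rose and 2 fell, with a median log2 difference of 0.24. For comparison, 25.3% of all tested genes rose and 29.2% fell, with a median log2 difference of -0.02. Whether roles differ from each other was not tested. UPF1, the RNA helicase at the core of the pathway, read 20.2, 20.99 and 20.4 FPKM in control cells against 25.6, 25.6 and 25.8 FPKM under the knockout label. Each group's libraries lay close together and the groups did not overlap: UPF1 rose by 25.02% (log2 difference 0.31, SE 0.034, adjusted p = 0.000369). UPF2, which bridges UPF1 to the exon junction complex, rose from 10.7, 10.5 and 10.9 FPKM to 13.001, 13.4 and 13.2 FPKM (0.29, SE 0.040, adjusted p = 0.00104). UPF3A (48.5 ± 0.401 to 45.1 ± 0.892 FPKM, -0.10, adjusted p = 0.0258) fell slightly, while its paralog UPF3B was not called at 18.8 ± 0.288 and 17.4 ± 1.18 FPKM (-0.11, adjusted p = 0.124). UPF3A lost its call in 10 of 15 alternatives, which left out control library 1, 2 or 3 or knockout library 1 or 3, used TPM scaling, median centring, no variance trend or a replicate block, or removed the GC and length trend. Its log2 difference there lay between -0.11 and -0.06, at adjusted p of 0.052 to 0.141.

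The same promoter windows are shown for UPF1 and UPF2, which rose together.
UPF1, chr19:18831709-18832008, plus strand: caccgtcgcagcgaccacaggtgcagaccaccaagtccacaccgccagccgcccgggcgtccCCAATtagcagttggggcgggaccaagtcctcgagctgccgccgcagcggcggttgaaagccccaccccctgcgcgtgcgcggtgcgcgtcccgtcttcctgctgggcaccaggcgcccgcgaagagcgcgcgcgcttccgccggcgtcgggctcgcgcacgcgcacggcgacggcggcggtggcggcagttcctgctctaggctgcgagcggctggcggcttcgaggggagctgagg
UPF2, chr10:12043121-12043420, minus strand: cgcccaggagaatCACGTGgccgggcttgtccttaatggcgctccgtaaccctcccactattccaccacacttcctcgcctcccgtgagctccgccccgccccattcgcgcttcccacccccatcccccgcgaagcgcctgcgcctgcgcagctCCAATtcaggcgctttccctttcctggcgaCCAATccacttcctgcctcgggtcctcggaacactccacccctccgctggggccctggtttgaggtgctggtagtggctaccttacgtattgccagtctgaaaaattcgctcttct
UPF1 held 1 CCAAT box, and UPF2 held 1 E-box and 2 CCAAT boxes. E-boxes were in 10.6% of windows of tested genes, in 3 of 20 members that rose, in none of 9 that fell and in 1 of 21 without a call. CCAAT boxes were in 9 of the 20, in 1 of the 9 (PAN2) and in 11 of the 21. No test was made on these small counts.

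SMG1, the kinase that phosphorylates UPF1, had the largest increase among the NMD factors. It read 13.9, 13.3 and 13.7 FPKM in control cells against 18.1, 18.3 and 19.9 FPKM under the knockout label, with no overlap (log2 difference 0.43, SE 0.048, adjusted p = 0.000385). GENCODE 29 names 7 pseudogenes after SMG1, so its share of reads from near-identical copies is uncertain. The regulators of this kinase went apart: SMG8 rose from 12.6, 12.2 and 12.1 FPKM to 14.97, 14.04 and 15.7 FPKM (0.26, SE 0.051, adjusted p = 0.00481), and SMG9 fell from 14.8, 15.5 and 16.4 FPKM to 13.1, 13.5 and 12.8 FPKM (-0.23, SE 0.049, adjusted p = 0.00661). SMG5, which binds phosphorylated UPF1, rose from 26.8 ± 0.722 to 31.8 ± 0.408 FPKM (0.24, adjusted p = 0.00128). SMG6, the endonuclease that cuts near the stop codon, was the least abundant NMD factor and was not called (6.09 ± 0.35 and 6.79 ± 0.392 FPKM, 0.13, 95% interval -0.01 to 0.28, adjusted p = 0.108).

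Genes whose mRNAs are widely reported as NMD targets were followed beside the factors. Of 16 such genes, none a member, 11 fell (68.8%) and 1 rose (6.25%), with a median log2 difference of -0.76. Of all tested genes 29.2% fell and 25.3% rose. TRIB3 (138 ± 3.64 to 50.8 ± 0.287 FPKM, log2 difference -1.42, adjusted p = 5.92e-07), CHAC1 (46.3 ± 0.505 to 19.1 ± 1.3 FPKM, -1.24, adjusted p = 8.09e-06) and GADD45A (50.9 ± 4.73 to 22.7 ± 0.545 FPKM, -1.12, adjusted p = 3.19e-05) were among those that fell, as was SLC7A11 (20.9 ± 0.581 to 9.07 ± 0.317 FPKM, -1.12, adjusted p = 6.94e-06), and the kinase gene MAP3K14 rose (4.31 ± 0.33 to 6.30 ± 0.423 FPKM, 0.46, adjusted p = 0.00166). Many of these genes are also targets of ATF4, which drives the response to amino acid shortage, whose own mRNA is listed and fell from 601 ± 20.9 to 313 ± 13.02 FPKM. The list was drawn up with the fall of ATF4 targets in these data known, so its direction is no independent evidence. The genes TBL2, NAT9, UPP1 and BAG1 of the list were not called, with log2 differences between -0.11 and 0.11. Gene-level FPKM do not separate NMD-sensitive isoforms from the others.

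**Figure D4:**
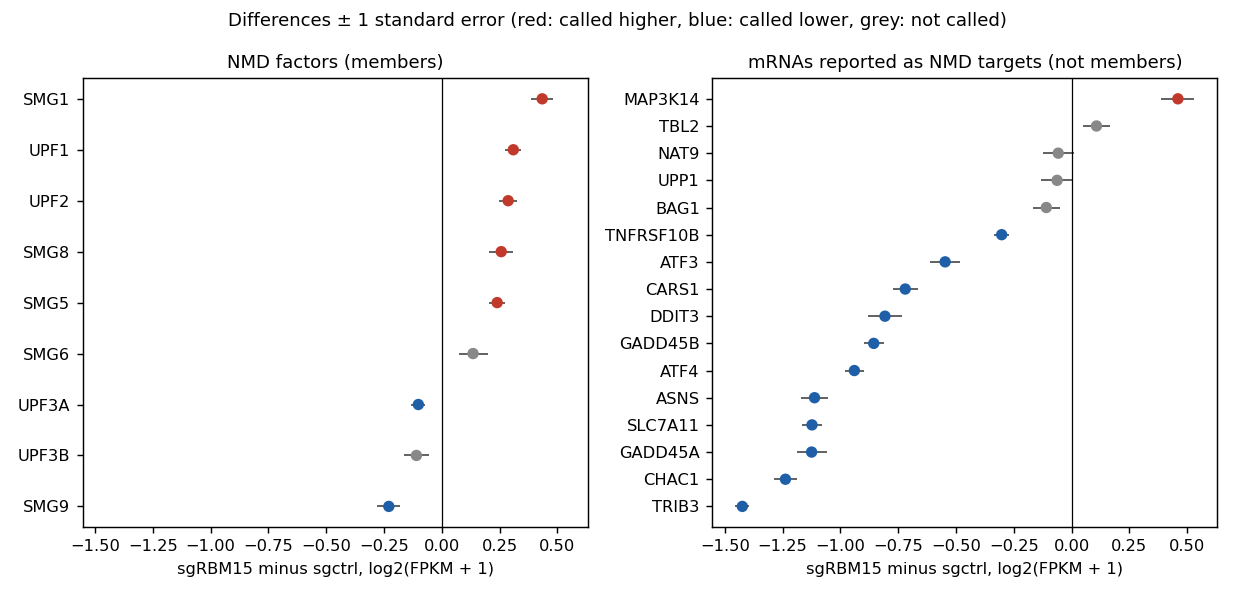
Log2(FPKM + 1) differences between the libraries labelled RBM15 knockout and the controls (x axis), with bars of 1 standard error, for 9 of the 10 NMD factors (left) and 16 genes whose mRNAs are reported as NMD targets (right). The factors lie between -0.23 and 0.43, and the reported targets between -1.42 and 0.46 with 11 called lower.

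Paralogs and partner subunits were compared in each library as the log2 ratio of their FPKM + 1, over 10 pairs. Overlap, exact p and log2 shifts refer to that ratio, and the ratios printed with an SD are of plain FPKM. In 7 of the 10 the ratios of the 3 control libraries and of the 3 libraries labelled knockout did not overlap (of single genes, 63.0% did not overlap). With 3 libraries a group, an exact permutation test (2-sided) cannot go below p = 0.1, which all 7 reached (adjusted over the 10 pairs, exact p = 0.143). DCP1A over DCP1B went from 3.39 ± 0.506 to 5.69 ± 0.334, and XRN1 over XRN2 from 0.0991 ± 0.0103 to 0.0635 ± 0.00302. CNOT7 over CNOT8 went from 0.917 ± 0.0464 to 1.18 ± 0.115, and DIS3 over DIS3L from 1.22 ± 0.244 to 1.64 ± 0.115. The log2 shift of DIS3 over DIS3L was 0.41, and 0.26 without control library 3. PAN2 over PAN3 went from 0.581 ± 0.0238 to 0.431 ± 0.0257, since PAN2 fell by more than PAN3. The shifts of LSM1 over LSM8 (2.75 ± 0.0575 to 3.20 ± 0.258) and TOB1 over TOB2 (1.03 ± 0.0382 to 0.933 ± 0.0368) were smaller. UPF3A over UPF3B was 2.57 ± 0.0507 and 2.60 ± 0.138 (exact p = 0.9). LSM14A over LSM14B (exact p = 0.3) and CNOT6 over CNOT6L (exact p = 0.6) also overlapped.

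**Figure D5:**
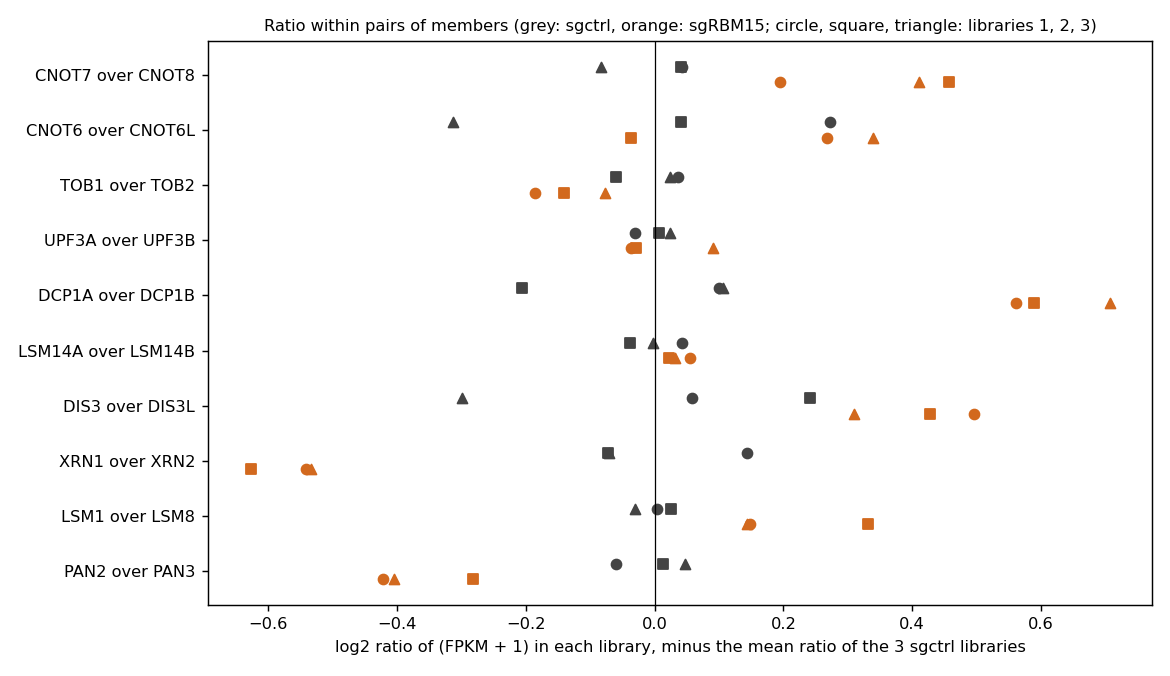
Log2 ratio of (FPKM + 1) of 2 members in each library, relative to the mean of the 3 control libraries (x axis), for 10 pairs; grey symbols are control libraries and orange symbols libraries labelled RBM15 knockout. DCP1A over DCP1B shifts by 0.62 and XRN1 over XRN2 by -0.57, while UPF3A over UPF3B shifts by 0.01.

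The cofactors of the exosome, which bring RNA to it in the nucleus or cytoplasm, were listed together with other RNA decay genes such as DIS3L2. Of these 18 genes 5 rose (27.8%), DIS3L2 among them, and 2 fell (11.1%). Of all tested genes 25.3% rose and 29.2% fell. MTREX, the nuclear helicase that feeds the exosome, rose from 31.7 ± 0.738 to 43.8 ± 0.636 FPKM (log2 difference 0.46, adjusted p = 6.9e-05). ZFC3H1, which links MTREX to polyadenylated nuclear RNA, rose from 9.17 ± 0.146 to 14.8 ± 0.182 FPKM (0.64, adjusted p = 4.01e-05), and the ribosome rescue gene PELO rose by 0.29 (adjusted p = 0.00225). Of other MTREX partners, ZCCHC8 (-0.23, adjusted p = 0.00427) and ZCCHC7 (-0.31, adjusted p = 0.00119) fell. The cytoplasmic SKI complex genes SKIC2, SKIC3 and SKIC8 were not called, with log2 differences of -0.11, 0.02 and -0.05. The median of these 18 was 0.11.

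Among 16 genes of the exon junction complex, translation termination and NMD cofactors, 6 rose (37.5%) and 4 fell (25.0%). Of all tested genes 25.3% rose and 29.2% fell. The helicase genes DHX34 (7.63 ± 0.173 to 10.1 ± 0.159 FPKM, log2 difference 0.36, adjusted p = 0.000526) and RUVBL1 (46.7 ± 0.756 to 60.4 ± 1.91 FPKM, 0.36, adjusted p = 0.000204) and the exon junction helicase gene EIF4A3 (0.30, adjusted p = 0.00957) rose most. PNRC1 (19.6 ± 0.291 to 14.01 ± 0.527 FPKM, -0.46, adjusted p = 0.000163), PYM1, which takes exon junction complexes off mRNA (-0.35, adjusted p = 0.0014), and CASC3 (-0.15, adjusted p = 0.0208) had the largest decreases among called genes, while NBAS was lower without a call (-0.33, adjusted p = 0.1005). The median of these 16 was 0.04.

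Among 35 tested recruiters of deadenylation and decapping and poly(A)-binding proteins, 14 rose and 6 fell, with a median log2 difference of 0.09. The share called was 57.1%, near the 54.5% of all tested genes (25.3% higher and 29.2% lower). NOCT, a circadian gene of the same enzyme family as CNOT6, rose from 3.38 ± 0.277 to 7.43 ± 0.734 FPKM (0.94, adjusted p = 0.000141). HELZ, an RNA helicase that binds CCR4-NOT, rose from 5.39 ± 0.168 to 8.35 ± 0.363 FPKM (0.55, adjusted p = 0.000205), and the GW182 gene TNRC6A from 9.69 ± 0.101 to 14.04 ± 0.291 FPKM (0.49, adjusted p = 0.000104). ZFP36L1, which brings CCR4-NOT to AU-rich mRNAs, fell from 33.4 ± 1.69 to 22.5 ± 0.768 FPKM (-0.55, adjusted p = 0.000138), and its relative ZFP36 was not called (0.06, adjusted p = 0.198). BTG1, an antiproliferative adaptor related to TOB1, fell by 0.47 (adjusted p = 0.000871), and PABPC1, the main cytoplasmic poly(A)-binding protein, fell from 487 ± 6.02 to 396 ± 1.66 FPKM (-0.30, adjusted p = 7.67e-05). The m6A reader gene YTHDF2, named for its tie to CCR4-NOT, rose from 60.5 ± 0.821 to 68.6 ± 1.16 FPKM (0.18, adjusted p = 0.00208).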

How the data were processed

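Per the labels' protocols, total RNA of HCT15 cells was extracted with TRIzol, and VAHTS Universal V6 libraries were sequenced as read pairs. Per the submitters' processing notes, the tools were HISAT2 2.2.1 and StringTie 2.0.4, and the build hg38. The authors deposited FPKM, per the file headers. For annotation, settings and strand use, the sources used here state nothing. Ratios of low values between libraries showed no whole-read steps (at most 0.93% within any window 0.1% wide), so depth is unknown and no counting interval is given.

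Groups came from the titles. log2(FPKM + 1) was fitted for the 11451 genes whose mean reached 1 FPKM, with limma 3.58.1 (R 4.3.3) without covariates and with a variance trend. P-values are 2-sided and Benjamini-Hochberg adjusted over all tested genes. This scale understates changes of low genes. A simulation with 11451 genes left 11251 of them unchanged and drew the changed genes from outside the lowest levels. Calls were made for 44% of the 50 genes given a 1.2-fold change, for 84% of the 50 given 1.5-fold, and for 6 of the unchanged genes. In the deposited data 54.5% of tested genes were called, so the adjustment for multiple tests differs. The simulated shares are therefore not detection rates of the comparison itself. Positions and exon overlaps come from GENCODE 29, promoters from RefSeq (GRCh38.p14; 50 of 59 members matched by symbol). Besides SMG1 and LSM3, pseudogenes are named after UPF3A (3), CNOT7, EXOSC3 and LSM1 (2 each), and CNOT4, CNOT6L, LSM6, LSM12 and TOB2 (1 each).

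The members and lists were chosen with earlier results of these data known. By rule, up to 5 called members per role with the largest difference, the catalytic subunits, the pairs and the most and least abundant members were described; others are named to account for them, 1 member is counted but its values are not reported here, and YTHDF2, ZFP36, NBAS, SLC7A11, ATF4, the SKI genes and the uncalled list genes lie outside it. The 15 alternatives changed the pseudocount (0.1), the filter (none, or 5 FPKM), the scaling (TPM, median or quantile), the variance trend (left out) or the model (replicate block, GC and length trend removed), or left out 1 library. Figures used matplotlib 3.10.9.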

Additional observations from a re-analysis of the deposited data

How the results depend on the processing

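A pseudocount of 0.1 left direction and call of all 59 members as they were, and so did a 5 FPKM filter for the 56 members it kept. Higher members numbered 23 to 28 in the 15 alternatives (25 as reported). The 10 lower members became 6 under TPM scaling, 6 after median centring, 5 after quantile normalization and 6 with a replicate block, and 6 to 9 when 1 library was left out (6 in the absence of control 1, control 3 or knockout 3). Deviations of same-numbered libraries had correlations across genes of -0.035, -0.037 and 4.5e-05, and those of differently numbered ones -0.020 to 0.054. These values cannot decide whether same-numbered libraries were handled together, which the labels do not say. The replicate block took the calls over all genes from 6245 to 5782 and kept 25 members higher. The members' median difference of 0.094 became 0.11 (5 FPKM filter), 0.12 (TPM scaling), 0.12 (median centring), 0.12 (quantile normalization) or 0.14 (GC and length trend removed), and 0.092 to 0.15 when 1 library was left out. Genes that rose on the list of exosome cofactors and DIS3L2, 5 as reported, became 8 after quantile normalization. They became 3 to 6 when 1 library was left out (3 in the absence of control 2, control 3, knockout 1 or knockout 2). With 1 library left out, lower NMD cofactors, 4 as reported, became 2 to 4 (2 in the absence of control 2). Lower genes on the list with recruiters and poly(A)-binding proteins, 6 as reported, then became 3 to 6 (3 in the absence of knockout 3). Reported NMD targets that rose, 1 as reported, became 1 to 2 (2 in the absence of knockout 3). Uncalled members that changed sign once the GC and length trend was removed were LSM4 (0.020), CNOT1 (-0.0056), LSM14B (0.068) and LSM7 (0.15, limma adjusted p = 0.0297). DIS3L did so under TPM scaling (0.023), median centring (0.028) and quantile normalization (0.032). Leaving out 1 library gave both signs for CNOT3 (-0.030 to 0.032), LSM8 (-0.094 to 0.015), LSM6 (-0.087 to 0.22), DIS3L (-0.043 to 0.030), CNOT6L (-0.22 to 0.058), PARN (-0.0075 to 0.047), LSM14A (-0.018 to 0.031) and LSM7 (-0.058 to 0.020). The cause was not tested. With 1 library left out, the log2 shift of a pair kept its sign in 9 of the 10 pairs and ran from -0.032 to 0.031 for UPF3A over UPF3B. It ran from 0.26 to 0.53 for DIS3 over DIS3L, from 0.30 to 0.43 for CNOT7 over CNOT8, from 0.15 to 0.24 for LSM1 over LSM8 and from 0.034 to 0.33 for CNOT6 over CNOT6L. A pseudocount of 0.1 moved PAN2 over PAN3 from -0.37 to -0.43 and DCP1A over DCP1B from 0.62 to 0.74.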

Other observations

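Transcripts of the members that rose had a median length of 4079 bases (longest GENCODE 29 transcript of each gene), those that fell 3681.5 bases and those without a call 2761.5 bases. Their median GC content was 47.7%, 43.4% and 44.5%. Over all tested genes the lengths were 4183, 3059 and 3721.5 bases and the GC contents 46.6%, 52.95% and 47.4%. The value for members that fell rests on 10 genes: the 4 called lower in every alternative had GC contents of 54.5% (LSM2), 50.7% (PAN2), 38.4% (PAN3) and 55.3% (SMG9). Across the 59 members the log2 difference and GC content had Pearson's r = 0.12, and across 11160 tested genes with a sequence r = -0.20; all points share the same 6 libraries, and genes are not independent replicates. Promoter windows of the members had a median GC content of 64.2%, against 65.7% for tested genes.

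Levels per length within a complex were far from equal. Exosome subunits ranged from 7.73 FPKM (EXOSC6) to 60.9 FPKM (EXOSC8) as means over the 6 libraries, NMD factors from 6.44 FPKM (SMG6) to 46.8 FPKM (UPF3A), and CCR4-NOT members from 8.72 FPKM (CNOT4) to 51.1 FPKM (CNOT1). The median SD within a group was 3.84% of the mean for the members and 5.11% for all tested genes. The members were also more abundant, with a median level of 23.3 FPKM against 12.7 FPKM. The part of level in the smaller spread was not tested.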
